A study of Mus musculus with 32 samples.

Results

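Cortical interneurons are sorted into subclasses by a small set of marker genes, and 10 of these markers, Pvalb, Sst, Lhx6, Npy, Reln, Vip, Htr3a, Tac2, Cck and Adarb2, were followed in bulk RNA of the cerebral cortex of aneuploid and euploid mice. They were picked by symbol from a table of 55401 genes, and all 10 were abundant enough to be among the 16042 genes tested. The rule itself uses symbols and no level, though the members were chosen with earlier results of these data known. Of these markers, Adarb2 alone passed the test for a difference between a genotype and its control: it was higher in Ts65Dn;Df(17)2 cortex than in +/+ cortex, by a fold of 1.38.

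The cortex of 32 mice aged 6 weeks was sequenced, 1 library per animal. Ts65Dn;Df(17)2 mice (10 animals, 5 of each sex) have the Ts65Dn marker chromosome, a separate additional chromosome with a distal piece of mouse chromosome 16, together with the deficiency Df(17)2. The Dp(16)1/Df(16)8 mice (10 animals, 5 of each sex by label) have a piece of chromosome 16 duplicated in place, together with the deficiency Df(16)8. The +/+ controls (12 animals, 6 of each sex) are euploid and carry none of these alleles. As background, the deficiencies trim each model so that both have close to the same genes in an additional copy, which sets a free additional chromosome against an in-place duplication. The changes are in the germline and are not specific to interneurons or to the cortex.

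Interneurons are the inhibitory, GABA-releasing neurons of the cortex, and most are born in the ganglionic eminences of the embryonic brain and migrate into it. Cells from the medial eminence keep the transcription factor Lhx6 and become the Pvalb and Sst classes, while cells from the caudal eminence carry Adarb2 and become the Vip class and many neurogliaform cells. The markers are not exclusive to these cells: Cck is also made by cortical excitatory neurons, and Lhx6, Sst, Npy and Pvalb also mark interneurons of the striatum, the region under the cortex.

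Total counts ran from 5795479 to 11189548 per library. As a check of the labels, the 77 tested genes of the tripled chromosome 16 segment were at 1.47 to 1.54 times the control level in Ts65Dn;Df(17)2 animals and at 1.45 to 1.55 times in Dp(16)1/Df(16)8 animals, against 0.970 to 1.04 in single +/+ animals. Sex-linked transcripts went with the labelled sex in 31 of 32 libraries, and the exception was Dp(16)1/Df(16)8 replicate 2. The libraries also differed in striatal RNA. The striatal score, which is the mean log2 CPM of 15 markers of striatal projection neurons, was 5.75 ± 0.62 in Ts65Dn;Df(17)2 (SD, n = 10), 5.12 ± 1.46 in Dp(16)1/Df(16)8 (SD, n = 10) and 4.42 ± 1.57 in +/+ (SD, n = 12). The summed level of those markers ran from 762 to 2887 CPM in Ts65Dn;Df(17)2, from 335 to 3109 CPM in Dp(16)1/Df(16)8 and from 227 to 3315 CPM in +/+, and 0 of the 15 were at 0 in any genotype. CPM here are counts scaled to a shared library size and normalised for composition.

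No member lies in the tripled segment. On GRCm38, Sst is on chromosome 16 at chr16:23889573-23890958 (minus strand), well before the segment, which starts at 84717576. Adarb2 is at chr13:8202866-8768747 (plus strand), Lhx6 at chr2:36081953-36105408 (minus), Pvalb at chr15:78191114-78206400 (minus) and Npy at chr6:49822710-49829507 (plus). Vip is at chr10:5639218-5647617 (plus), Tac2 at chr10:127724478-127731768 (plus), Htr3a at chr9:48899213-48911099 (minus), Cck at chr9:121489824-121495694 (minus) and Reln at chr5:21884454-22344702 (minus). All are protein-coding genes, and reads were summed over their exons. An exon of Lhx6 overlaps Gm27953 on the same strand, so reads of this pair cannot be told apart where they overlap. An exon of Reln overlaps Gm10475 on the other strand, where reads can be told apart only if the counting used the strand.

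Promoter sequences are shown for the member whose level differed between genotypes, Adarb2, and for 3 peptide genes, Sst, Vip and Cck, whose levels behaved differently across animals: Sst was the steadiest member, while Vip and Cck varied most closely together. Each is the RefSeq promoter of GRCm38.p6, from 250 bases before to 50 bases after the transcription start, 5′ to 3′ on the strand of the gene. They lie at chr13:8202616-8202915 (plus, Adarb2), chr16:23890795-23891094 (minus, Sst), chr10:5638968-5639267 (plus, Vip) and chr9:121495645-121495944 (minus, Cck). Capitals mark the cyclic AMP response element TGACGTCA, the site through which cyclic AMP acts on many neuropeptide genes, or its shorter form TGACG on either strand.
Adarb2: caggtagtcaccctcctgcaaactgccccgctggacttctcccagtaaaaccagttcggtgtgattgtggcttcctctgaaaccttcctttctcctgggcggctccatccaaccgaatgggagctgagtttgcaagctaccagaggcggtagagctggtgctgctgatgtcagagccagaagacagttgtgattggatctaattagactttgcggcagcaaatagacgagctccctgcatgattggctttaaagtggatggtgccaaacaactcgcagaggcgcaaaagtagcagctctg
Sst: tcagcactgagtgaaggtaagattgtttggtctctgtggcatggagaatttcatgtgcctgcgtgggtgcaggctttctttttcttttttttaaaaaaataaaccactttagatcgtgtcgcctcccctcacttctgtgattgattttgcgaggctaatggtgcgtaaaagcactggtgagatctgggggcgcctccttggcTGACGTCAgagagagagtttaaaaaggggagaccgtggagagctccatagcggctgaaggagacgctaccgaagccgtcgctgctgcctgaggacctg
Vip: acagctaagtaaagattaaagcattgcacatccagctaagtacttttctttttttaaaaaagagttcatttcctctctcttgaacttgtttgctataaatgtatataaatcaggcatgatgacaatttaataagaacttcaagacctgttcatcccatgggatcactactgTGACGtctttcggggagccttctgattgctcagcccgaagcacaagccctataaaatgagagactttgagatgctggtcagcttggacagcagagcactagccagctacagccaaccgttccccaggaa
Cck: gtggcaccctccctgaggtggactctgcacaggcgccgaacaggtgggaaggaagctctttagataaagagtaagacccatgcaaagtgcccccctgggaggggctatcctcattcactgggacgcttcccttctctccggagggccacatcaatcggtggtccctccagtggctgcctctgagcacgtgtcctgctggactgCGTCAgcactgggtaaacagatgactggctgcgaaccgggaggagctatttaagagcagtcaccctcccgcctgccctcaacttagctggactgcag

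The full element stood in the Sst promoter at position -48 and in 1.79% of 32851 mouse promoters of the same length. The Vip promoter held the shorter form at position -79 and the Cck promoter, on the other strand, at position -47, and 20.8% of all promoters hold it. These letters were not found in the Adarb2 window. They were also absent from the windows, not shown, of the peptide genes Npy and Tac2 and of Pvalb, Lhx6 and Reln. Htr3a had no promoter in the source used. The full element contains the shorter form, so the counts overlap, and a match is a match of letters only.

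Per kilobase of exon, the members covered a wide range of levels. In Ts65Dn;Df(17)2, the mean level was 131 ± 10.9 CPM per kb for Sst (SD, n = 10), 51.8 ± 13.8 for Cck, 44.97 ± 8.04 for Npy, 12.2 ± 0.857 for Reln, 11.1 ± 3.20 for Pvalb, 4.64 ± 0.942 for Lhx6, 3.49 ± 1.16 for Vip, 3.10 ± 0.435 for Adarb2, 2.71 ± 1.31 for Tac2 and 1.83 ± 0.544 for Htr3a. In Dp(16)1/Df(16)8, Sst was at 126 ± 15.6 CPM per kb (SD, n = 10), Cck at 60.4 ± 24.9, Npy at 49.5 ± 9.17, Pvalb at 12.6 ± 5.86, Reln at 11.5 ± 2.12, Vip at 4.48 ± 2.45, Lhx6 at 4.30 ± 1.03, Adarb2 at 2.89 ± 0.511, Tac2 at 2.698 ± 0.632 and Htr3a at 1.82 ± 0.667. In +/+, Sst was at 118 ± 9.54 CPM per kb (SD, n = 12), Cck at 79.7 ± 25.5, Npy at 47.0 ± 8.87, Pvalb at 17.8 ± 8.44, Reln at 10.5 ± 2.99, Vip at 5.19 ± 1.85, Lhx6 at 3.67 ± 0.822, Adarb2 at 2.25 ± 0.403, Tac2 at 2.13 ± 1.01 and Htr3a at 1.77 ± 0.789. Sst stood above Cck by more than their SDs in each genotype, and so did Npy above the member below it. Cck and Npy were within their SDs of each other in each genotype, as were Pvalb and Reln, Vip and Lhx6, Adarb2 and Tac2, and Tac2 and Htr3a. Htr3a and Tac2, the scarcest members, had 14 to 55 and 8 to 50 counts in a library, against 856 to 3288 counts for Reln.

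**Figure D1:**
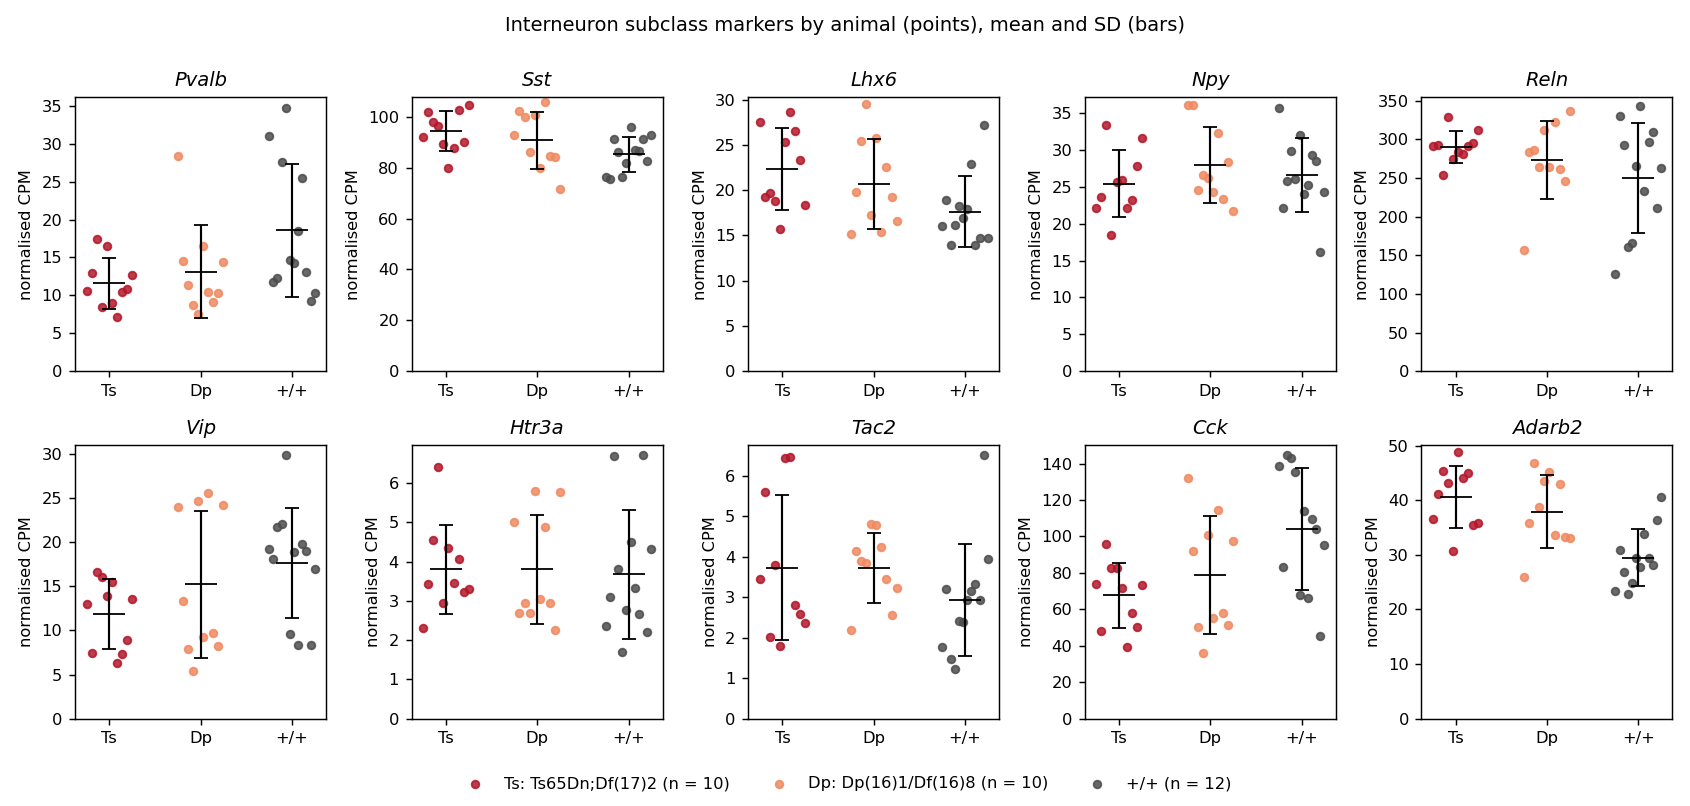
Normalised CPM (y axis, from 0) of each of the 10 markers in each animal (points), with the mean and SD (bars), for Ts65Dn;Df(17)2 (n = 10), Dp(16)1/Df(16)8 (n = 10) and +/+ (n = 12). Ranges overlap between genotypes for every marker, and the Adarb2 means are 40.6, 37.9 and 29.5 CPM in that order of genotypes.

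The comparison of Ts65Dn;Df(17)2 with +/+ asks what the freestanding additional chromosome goes with. One member was called, meaning an adjusted p under 0.05 in edgeR's quasi-likelihood test over all tested genes, against 3.97% of all tested genes, and it was higher, against 1.75% called higher. A further 5 members had an unadjusted p under 0.05, for 6 of 10 in all, where 21.8% of all tested genes did. The median log2 fold change of the 10 members was 0.09, against 0.0047 over all tested genes. In a bulk sample, fewer cells of a type and less RNA per cell cannot be told apart.

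Adarb2, which encodes a brain-specific relative of the RNA-editing enzymes that has no editing activity of its own, ran from 30.7 to 48.9 CPM with a median of 42.2 in Ts65Dn;Df(17)2, from 25.9 to 46.9 with a median of 37.2 in Dp(16)1/Df(16)8 and from 22.8 to 40.6 with a median of 28.7 in +/+. Every one of the 10 Ts65Dn;Df(17)2 animals was above the mean of +/+, although the highest +/+ animals reached into their range. The mean was 40.6 ± 5.70 CPM in Ts65Dn;Df(17)2 (SD, n = 10) and 29.5 ± 5.28 CPM in +/+ (SD, n = 12). The log2 fold change was 0.46 (SE 0.097, approximate 95% interval of the fold 1.21 to 1.57), with an adjusted p of 0.0062 in edgeR's quasi-likelihood test. The call was kept in 32 of 32 fits that each left out 1 library, with log2 fold changes of 0.44 to 0.51. Within the one block of neighbouring animal numbers that holds all 3 genotypes, Adarb2 averaged 41.6 ± 5.08 CPM in Ts65Dn;Df(17)2 (SD, n = 8) and 29.1 ± 4.38 CPM in +/+ (SD, n = 6). There its log2 fold change was 0.48, with an edgeR adjusted p of 0.036. The call was lost with the striatal score as a further term (log2 0.37, edgeR adjusted p 0.055) and with the number blocks as further terms (log2 0.41, edgeR adjusted p 0.16).

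**Figure D2:**
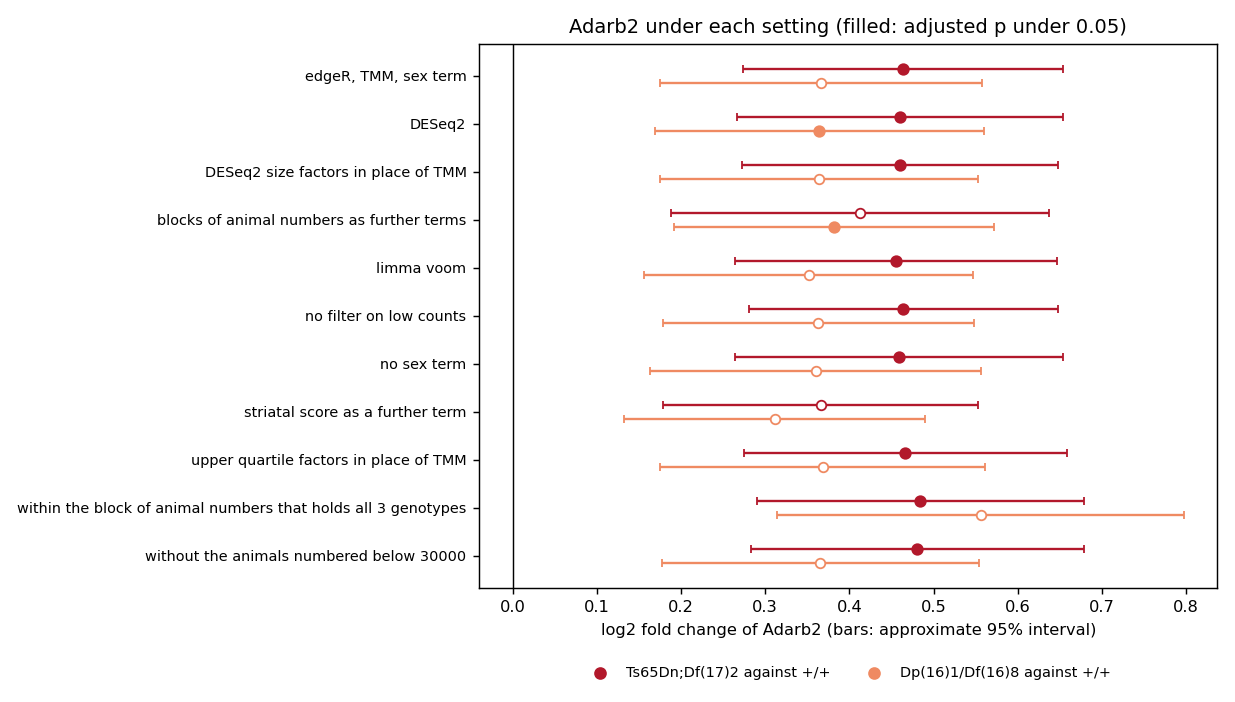
Log2 fold change of Adarb2 (x axis; bars are approximate 95% intervals) in Ts65Dn;Df(17)2 and Dp(16)1/Df(16)8 against +/+ under each processing setting (y axis), with filled points where the adjusted p is under 0.05. All values are above 0, and the call depends on the setting: with the striatal score as a term the value against +/+ is 0.37 in Ts65Dn;Df(17)2 and is not called.

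Lhx6, the transcription factor that keeps the identity of medial-eminence cells, ran from 15.7 to 28.7 CPM with a median of 21.5 in Ts65Dn;Df(17)2 and from 13.9 to 27.2 with a median of 16.5 in +/+. The ranges overlapped widely, with 9 of 10 Ts65Dn;Df(17)2 animals above the +/+ mean. The log2 fold change of Lhx6 was 0.34 (SE 0.13, edgeR adjusted p 0.11), which did not pass, though it passed without +/+ replicate 11 (log2 0.41, edgeR adjusted p 0.033). That fit called 9.27% of all tested genes, against 3.97% in the main fit. With the striatal score as a term the log2 fold change of Lhx6 was 0.20 (edgeR adjusted p 0.53), and with the number blocks as terms 0.23 (edgeR adjusted p 0.63). Sst, the peptide somatostatin of the dendrite-targeting class, ran from 79.9 to 105 CPM with a median of 94.4 in Ts65Dn;Df(17)2 and from 75.6 to 96.1 with a median of 86.3 in +/+. Its log2 fold change was small and tightly measured at 0.14 (SE 0.060, edgeR adjusted p 0.15), an interval of the fold of 1.02 to 1.199 before any adjustment.

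Pvalb, the calcium-binding protein of fast-spiking cells, ran from 7.20 to 17.4 CPM with a median of 10.7 in Ts65Dn;Df(17)2 and from 9.24 to 34.8 with a median of 14.4 in +/+. The 5 highest +/+ animals lay above every Ts65Dn;Df(17)2 animal, the others overlapped with them, and all 10 Ts65Dn;Df(17)2 animals were below the +/+ mean. The log2 fold change was -0.67 (SE 0.22, fold 0.629), with an edgeR adjusted p of 0.075. It passed without +/+ replicate 11 (edgeR adjusted p 0.038), without Dp(16)1/Df(16)8 replicate 1 (edgeR adjusted p 0.049) and in DESeq2 (adjusted p 0.040). Those fits called 9.27%, 5.61% and 6.66% of all tested genes in that order, against 3.97% in the main fit. Within the block with all genotypes, Pvalb was at 11.4 ± 3.07 CPM in Ts65Dn;Df(17)2 (SD, n = 8) and 15.5 ± 7.82 CPM in +/+ (SD, n = 6), and the log2 fold change was -0.32. With the striatal score as a term it was -0.40. The 3 +/+ animals of another block, which has no Ts65Dn;Df(17)2 animal, had 25.5 to 34.8 CPM. Npy, a peptide of Sst-class and neurogliaform cells, ran from 18.5 to 33.5 CPM with a median of 24.7 in Ts65Dn;Df(17)2 and from 16.1 to 35.7 with a median of 25.98 in +/+. For Npy the log2 fold change was -0.06 (SE 0.11, interval of the fold 0.827 to 1.11, edgeR adjusted p 0.80).

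Among markers of the caudal-eminence classes, Vip, a vasoactive peptide of cells that inhibit other interneurons, ran from 6.33 to 16.7 CPM with a median of 13.3 in Ts65Dn;Df(17)2 and from 8.33 to 29.8 with a median of 18.9 in +/+. All 10 Ts65Dn;Df(17)2 animals were below the +/+ mean, and the 3 lowest +/+ animals lay within their range. Vip had a log2 fold change of -0.57 (SE 0.25, edgeR adjusted p 0.18), and with the striatal score as a term it was -0.0048. Cck, the peptide cholecystokinin, ran from 39.2 to 96.1 CPM with a median of 72.5 in Ts65Dn;Df(17)2 and from 45.2 to 145 with a median of 107 in +/+, with all 10 Ts65Dn;Df(17)2 animals below the +/+ mean. Cck had a log2 fold change of -0.62 (SE 0.20, edgeR adjusted p 0.066). It passed in DESeq2 (adjusted p 0.033) and in edgeR without +/+ replicate 6 (adjusted p 0.038), +/+ replicate 11 (adjusted p 0.024) or Dp(16)1/Df(16)8 replicate 4 (adjusted p 0.044), and it was -0.20 with the striatal score as a term and -0.37 with the number blocks as terms. The fits in which Cck passed called 6.66%, 6.94%, 9.27% and 4.87% of all tested genes in that order, against 3.97% in the main fit.

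Htr3a, a subunit of the serotonin-gated ion channel, ran from 2.30 to 6.41 CPM with a median of 3.45 in Ts65Dn;Df(17)2 and from 1.68 to 6.72 with a median of 3.20 in +/+. Its log2 fold change was 0.04 (SE 0.22, interval of the fold 0.762 to 1.39, edgeR adjusted p 0.94). A change of a size within that interval is not excluded with these animals and counts. Tac2, which encodes the peptide neurokinin B, ran from 1.80 to 6.48 CPM with a median of 3.13 in Ts65Dn;Df(17)2 and from 1.22 to 6.51 with a median of 2.94 in +/+. Tac2 had a log2 fold change of 0.36 (SE 0.23, edgeR adjusted p 0.37). Reln, the secreted glycoprotein reelin of layer 1 and neurogliaform cells, ran from 254 to 329 CPM with a median of 291 in Ts65Dn;Df(17)2 and from 126 to 344 with a median of 264 in +/+. The spread was narrower in Ts65Dn;Df(17)2, at an SD of 20.3 CPM against 71.0 CPM in +/+, a difference that was not tested. For Reln the log2 fold change was 0.22 (SE 0.13, edgeR adjusted p 0.31).

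**Figure D3:**
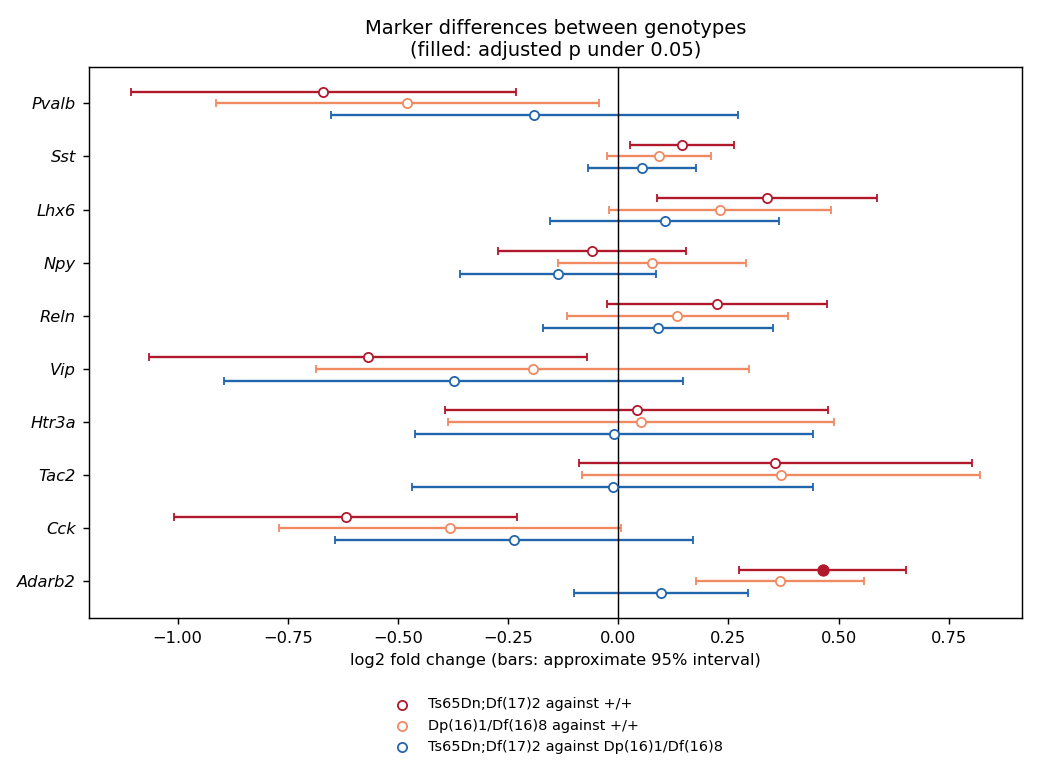
Log2 fold change (x axis; bars are approximate 95% intervals) of each marker (y axis) in Ts65Dn;Df(17)2 against +/+, Dp(16)1/Df(16)8 against +/+ and Ts65Dn;Df(17)2 against Dp(16)1/Df(16)8, with filled points where the adjusted p is under 0.05. One point is filled, Adarb2 in Ts65Dn;Df(17)2 against +/+ at 0.46.

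The comparison of Dp(16)1/Df(16)8 with +/+ gives the in-place duplication, and it shares the +/+ animals with the comparison above. No member was called, against 0.573% of all tested genes, and 2 members had an unadjusted p under 0.05 by edgeR, against 12.8% of all tested genes. DESeq2 called 1 member. Adarb2 was at 37.9 ± 6.70 CPM in Dp(16)1/Df(16)8 (SD, n = 10) and 29.5 ± 5.28 CPM in +/+ (SD, n = 12), with 9 of 10 animals above the +/+ mean. Its log2 fold change was 0.37 (SE 0.097, fold 1.29, edgeR adjusted p 0.086). It was called by DESeq2 (adjusted p 0.035), with the number blocks as terms (edgeR adjusted p 0.039) and in edgeR without +/+ replicate 11 (adjusted p 0.046), +/+ replicate 12 (adjusted p 0.030) or Dp(16)1/Df(16)8 replicate 1 (adjusted p 0.020). Those fits called 0.904%, 1.47%, 1.03%, 0.563% and 1.38% of all tested genes in that order, against 0.573% in the main fit. Within the block with all genotypes Adarb2 was at 42.9 ± 4.10 CPM in Dp(16)1/Df(16)8 (SD, n = 3) and 29.1 ± 4.38 CPM in +/+ (SD, n = 6). There the animals ran from 38.7 to 46.9 and from 23.3 to 36.3 CPM in that order of groups, while over all animals the ranges overlapped. The log2 fold change within the block was 0.56 (SE 0.12), which was not called (edgeR adjusted p 0.079). With the striatal score as a term it was 0.31 (edgeR adjusted p 0.13).

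Pvalb ran from 7.53 to 28.4 CPM with a median of 10.9 in Dp(16)1/Df(16)8, where the highest animal stood apart from the other 9, against 9.24 to 34.8 CPM in +/+. Its log2 fold change was -0.48 (SE 0.22, edgeR adjusted p 0.36). Vip ran from 5.36 to 25.5 CPM in Dp(16)1/Df(16)8 and from 8.33 to 29.8 CPM in +/+, and Cck from 36.0 to 132 CPM in Dp(16)1/Df(16)8 and from 45.2 to 145 CPM in +/+. The ranges overlapped widely for both genes. The log2 fold change was -0.19 for Vip (SE 0.25, edgeR adjusted p 0.78) and -0.38 for Cck (SE 0.20, edgeR adjusted p 0.41). Neither value was steady across settings or called in them: within the block with all genotypes Vip was at -1.02 (edgeR adjusted p 0.30) and Cck at -1.01 (edgeR adjusted p 0.27), while with the striatal score as a term they were at 0.0057 and -0.21. The other 6 members had log2 fold changes between 0.05 and 0.37, with edgeR adjusted p between 0.45 and 0.94. Their levels in Dp(16)1/Df(16)8 were 90.9 ± 11.2 CPM for Sst, 27.99 ± 5.19 for Npy, 20.7 ± 4.95 for Lhx6, 273 ± 50.3 for Reln, 3.80 ± 1.39 for Htr3a and 3.72 ± 0.870 for Tac2 (SD, n = 10 each), against 85.4 ± 6.88, 26.6 ± 5.02, 17.6 ± 3.95, 250 ± 71.0, 3.68 ± 1.64 and 2.94 ± 1.38 CPM in +/+ (SD, n = 12 each). Each pair of groups overlapped.

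Set directly against each other, the aneuploid genotypes gave no called member: 0 passed in edgeR, against 0.0499% of all tested genes, and 0 had an unadjusted p under 0.05, against 4.10% of them. DESeq2 also called 0. The interval of the fold of Ts65Dn;Df(17)2 over Dp(16)1/Df(16)8 was 0.933 to 1.23 for Adarb2, 0.953 to 1.13 for Sst and 0.636 to 1.21 for Pvalb. So the call of Adarb2 in one aneuploid genotype and not in the other is not shown to be a difference between them.

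Sex was the other labelled condition. No member was called between males and females, against 0.0748% of all tested genes, and DESeq2 also called 0. One unadjusted p was under 0.05, against 9.94% of all tested genes, and it was that of Pvalb, with a log2 fold change of -0.40 in males against females (SE 0.18, unadjusted p 0.037 and adjusted p 0.48 in edgeR). In +/+, Pvalb ran from 9.24 to 25.5 CPM in males and from 11.7 to 34.8 CPM in females. Without the library whose sex-linked transcripts went against its label, the log2 fold change of Pvalb was -0.41. No member was called for an interaction of genotype and sex, where 0 of 16042 genes were called in edgeR. By unadjusted p under 0.05, 0 members passed in Ts65Dn;Df(17)2, against 4.91% of all tested genes, and 1 in Dp(16)1/Df(16)8, against 5.01%. The smallest unadjusted p was 0.0083 in edgeR (adjusted p 0.93), for Sst in Dp(16)1/Df(16)8. There Sst was at 85.4 ± 12.7 CPM in males and 96.4 ± 6.78 CPM in females (SD, n = 5 each), while in +/+ it was at 89.4 ± 4.96 CPM in males and 81.3 ± 6.34 CPM in females (SD, n = 6 each). The sexes thus lay in opposite order by label in these genotypes, with overlapping ranges. The Dp(16)1/Df(16)8 females include the library whose sex-linked transcripts went against its label. The interaction of Sst was -0.31 log2 units with that library and -0.29 without it (edgeR adjusted p 0.97).

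The markers fell into different patterns along the striatal score. With genotype and sex in the model, 5 of 10 members were called for a slope on the score, against 27.2% of all tested genes. Of these, 3 fell, against 13.3% of all tested genes, and 2 rose, against 13.8%. Vip changed by -0.38 log2 units per unit of score (SE 0.053, edgeR adjusted p 9.2e-07), Cck by -0.29 (SE 0.046, edgeR adjusted p 1.1e-05) and Htr3a by -0.22 (SE 0.067, edgeR adjusted p 0.014). Those 3 fell as striatal RNA rose, and kept their calls in 32 of 32 fits without 1 library. Lhx6 rose by 0.11 (SE 0.039, edgeR adjusted p 0.029) and Adarb2 by 0.08 (SE 0.030, edgeR adjusted p 0.046). Both were near the threshold: Lhx6 kept its call in 26 of those 32 fits, and Adarb2 in 10. Pvalb had a slope of -0.17 (edgeR adjusted p 0.062) and passed in 6 of them. Sst, Npy and Reln had slopes of 0.0079, -0.011 and 0.03, with edgeR adjusted p of 0.83, 0.87 and 0.68. The slope of Sst had an SE of 0.021, the smallest of the 10.

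**Figure D4:**
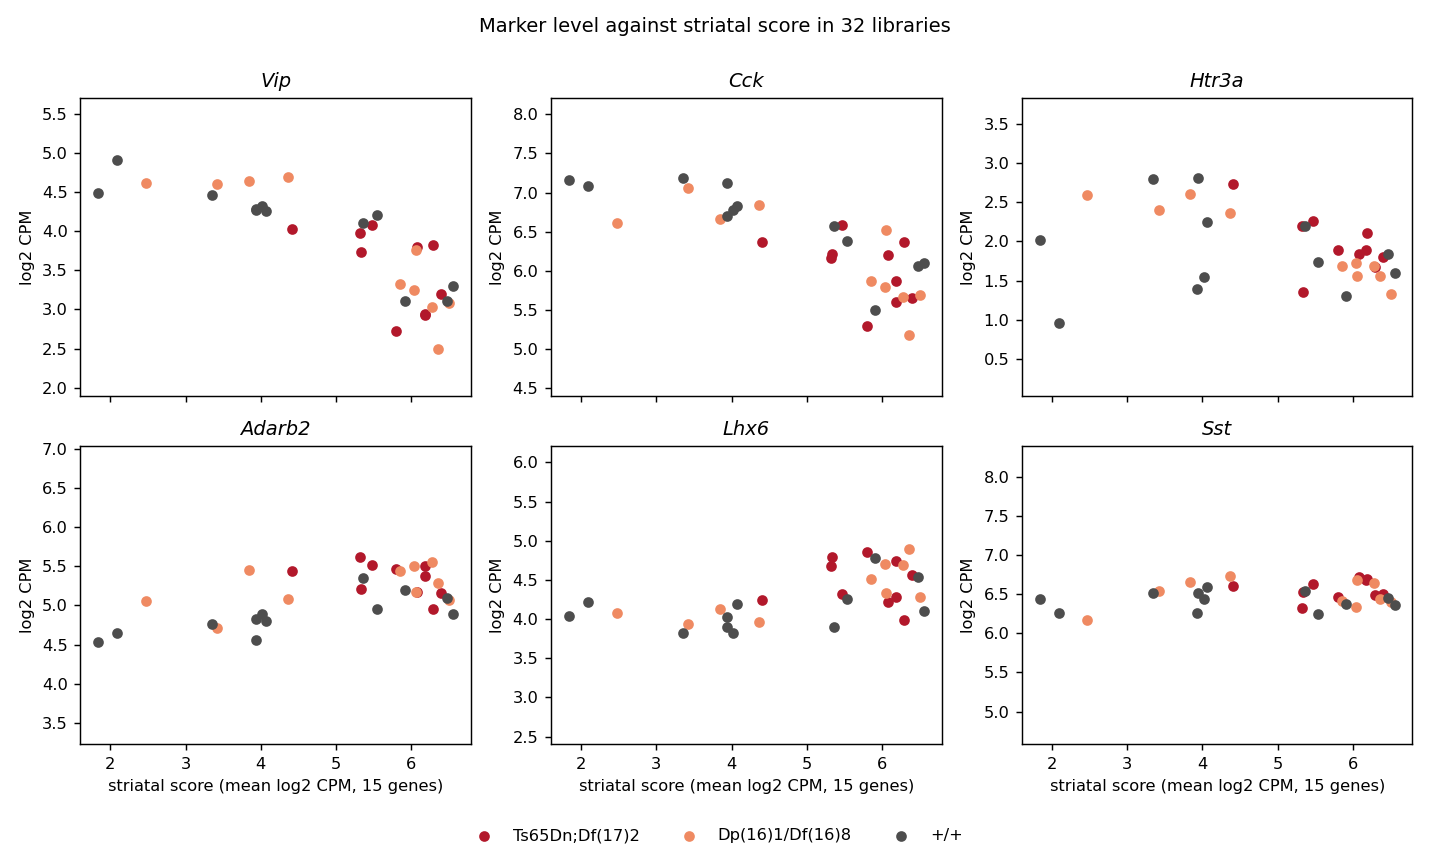
Log2 CPM of 6 markers (y axis, the same span in every panel) against the striatal score (x axis, mean log2 CPM of 15 striatal markers) in 32 libraries, coloured by genotype. Vip and Cck are lower where the score is high, with the drop mostly above a score of about 5, Adarb2 and Lhx6 are slightly higher, and Sst is level.

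Over all animals, the most even member was Sst, with a coefficient of variation of 10.3% over all 32 libraries and a highest level 1.48 times the lowest. Pvalb was the least even at 48.7%, followed by Vip at 44.2%, Tac2 at 41.1%, Cck at 38.1% and Htr3a at 36.7%. Lhx6, Adarb2, Reln and Npy lay between, at 23.7%, 21.1%, 20.1% and 18.3%. These coefficients are of CPM and were not adjusted for genotype.

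Markers of one developmental origin did not always vary together. Of 45 pairs of members, 20 were called over 32 animals by a permutation test of the residuals left after genotype and sex (100000 permutations, both directions, adjusted over the pairs), 9 of them positive and 11 negative, and all 20 were also called by Spearman's rho. The share called among pairs of other genes was not determined. This count and those below are therefore not shown to be particular to these markers. The strongest pair of members was Vip and Cck, with Pearson's r of 0.93 (permutation p 1e-05, the smallest these permutations can give, adjusted p 0.00023) and rho of 0.90. It was 0.91 without the 2 libraries farthest from the median of Vip, 0.84 with a straight line on the striatal score also taken out, and 0.92 among the 17 animals of the block with all genotypes. Vip and Cck dropped mostly at high scores, so a straight line need not take out all of their relation with the score. Both went against Lhx6, at an r of -0.71 for Vip (rho -0.68) and -0.75 for Cck (rho -0.70), each with a permutation adjusted p of 0.00023. Without the 2 farthest libraries these were -0.68 and -0.64, and within the block -0.54 and -0.65, where the pair of Lhx6 and Cck was called (permutation adjusted p 0.035) and that of Vip and Lhx6 was not (permutation adjusted p 0.091). With the score taken out both were called, at -0.63 for Vip and -0.69 for Cck.

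Adarb2 went with Tac2, at an r of 0.66 (rho 0.67, permutation adjusted p 0.00023; 0.65 without the 2 farthest libraries, 0.59 within the block). It went against Cck and Pvalb, at an r of -0.49 (rho -0.46, permutation adjusted p 0.016) and -0.58 (rho -0.59, permutation adjusted p 0.0033). Without the 2 farthest libraries these were -0.49 and -0.50, and within the block -0.36 and -0.44. With the score taken out, the pair with Cck was at -0.26 and lost its call (permutation adjusted p 0.23), and that with Pvalb was at -0.50 and kept it (permutation adjusted p 0.015). Adarb2 and Vip, both caudal-eminence markers, had an r of -0.40, which did not pass (permutation adjusted p 0.051). Vip and Htr3a, also of the caudal-eminence classes, were called at an r of 0.49 (permutation adjusted p 0.016). Lhx6 and Adarb2, markers of different origins, were called at 0.49 as well (permutation adjusted p 0.017). With the score taken out these 2 pairs were at 0.22 and 0.35 and lost their calls (permutation adjusted p 0.31 and 0.10). Pvalb went with Npy, at an r of 0.55 (rho 0.57, permutation adjusted p 0.0084; 0.56 without the 2 farthest libraries, 0.73 within the block), and against Reln, at -0.59 (rho -0.47, permutation adjusted p 0.0033; -0.46 without the 2 farthest libraries, -0.56 within the block). Sst was in 0 of the 20 called pairs. With the score taken out, 16 pairs were called, 13 of them among the 20. Within the block 7 were called, all among the 20, and all 20 had the same sign there. Of the called pairs named above, those of Vip and Cck, Lhx6 and Cck, and Pvalb and Npy were called within the block. Vip and Lhx6, Adarb2 and Tac2, Adarb2 and Cck, Adarb2 and Pvalb, and Pvalb and Reln were not, with permutation adjusted p of 0.071 to 0.26. Nor were Vip and Htr3a or Lhx6 and Adarb2 (permutation adjusted p 0.17 and 0.18).

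**Figure D5:**
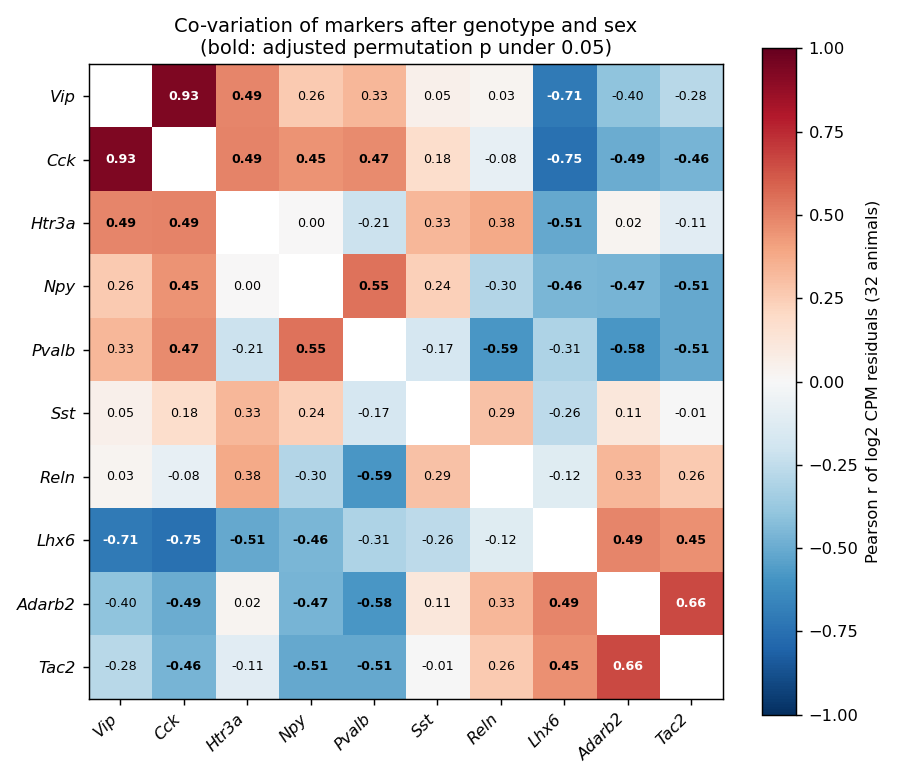
Pearson's r of log2 CPM residuals over 32 animals for each of the 45 pairs of markers (both axes), with colour from -1 to 1 and bold where the adjusted permutation p is under 0.05. Vip and Cck stand out at 0.93, Lhx6 is opposed to both, and the Sst row holds no bold value.

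The genes whose levels most resembled each member over the 32 libraries were sought among 13160 other genes, by Pearson's r of the same residuals, as a description with no test. Vip was closest to Nav3, Khdrbs3 and Gabbr2, at an r of 0.94, 0.94 and 0.94. Cck was closest to Nptx1, Lingo1 and Syn1, at 0.97, 0.96 and 0.96, and Syn1 encodes synapsin of synaptic vesicles. Adarb2 was closest to Nbeal2, Calb2 and Plce1, at 0.84, 0.81 and 0.79, and Calb2 encodes calretinin, a calcium-binding protein of many Vip cells. Pvalb was closest to Kcna2, Cdr1os and Hlf, at 0.88, 0.87 and 0.87, and Kcna2 encodes an axonal potassium channel. Lhx6 was closest to Ache, Ppfia4 and Rit2, at 0.81, 0.79 and 0.79, and Ache encodes acetylcholinesterase. Sst was closest to Dctn1, Aplp1 and Ap3d1, at 0.80, 0.74 and 0.70. Reln was closest to Cdh13, Scn3b and Mapk3, at 0.93, 0.92 and 0.92. Npy was closest to Rbfox3, Cdk5r2 and Fstl4, at 0.85, 0.82 and 0.82, Htr3a to Plppr2, Cacna1b and Gprin1, at 0.80, 0.78 and 0.77, and Tac2 to Resp18, Gabrq and Gnai2, at 0.81, 0.79 and 0.78.

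Other genes of the same cells gave a mixed picture in Ts65Dn;Df(17)2 against +/+. The counts that follow stand against 1.75% of all tested genes called higher, 2.22% called lower and 21.8% with an unadjusted p under 0.05. Of 12 genes of GABA synthesis and shared interneuron identity, 2 were called higher and 0 lower, with a median log2 fold change of 0.43. They were Gad1, a GABA-making enzyme, at 458 ± 66.5 CPM in Ts65Dn;Df(17)2 (SD, n = 10) and 340 ± 81.2 CPM in +/+ (SD, n = 12, log2 fold change 0.43, edgeR adjusted p 0.046), and Dlx6os1, a long noncoding RNA of the Dlx locus, at 77.5 ± 16.1 and 50.2 ± 16.3 CPM in the same order of groups (log2 fold change 0.62, edgeR adjusted p 0.026). Striatal projection neurons also use both genes, and all 15 striatal markers had positive log2 fold changes, with a median of 0.76 and 0 called in edgeR (1 at an unadjusted p under 0.05). The part of striatal RNA in the calls of Gad1 and Dlx6os1 was not tested.

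Of 7 further medial-eminence genes, 1 was called, lower: the chromatin organiser Satb1, at 98.7 ± 21.7 CPM in Ts65Dn;Df(17)2 (SD, n = 10) and 178 ± 76.3 CPM in +/+ (SD, n = 12, log2 fold change -0.82, edgeR adjusted p 0.040). Lhx6 was at 17.6 ± 3.95 CPM in +/+ (SD, n = 12), and the cells that the Satb1 RNA came from were not determined. Of 8 caudal-eminence genes, 0 were called in edgeR (3 at an unadjusted p under 0.05), with positive log2 fold changes in 8 of 8 and a median of 0.29, against 0.0047 over all tested genes. Along the striatal score, 4 of these 8 were called higher and 0 lower, against 13.8% and 13.3% of all tested genes. Of the 7 medial-eminence genes, 1 rose and 5 fell along it. Of the 12 shared GABA genes, 8 rose and 1 fell, and of the 8 tested Sst class genes, 3 rose and 1 fell. The part of striatal RNA in these log2 fold changes was not tested. The most abundant caudal-eminence gene was Cnr1, the cannabinoid receptor, at 366 ± 74.3 CPM in Ts65Dn;Df(17)2 and 288 ± 82.5 CPM in +/+ (log2 fold change 0.34, edgeR adjusted p 0.14). Of 9 tested genes of the Pvalb class, 1 was called lower, the potassium channel subunit Kcns3, with a log2 fold change of -0.81 (edgeR adjusted p 0.019). It was at 2.95 ± 0.969 CPM in Ts65Dn;Df(17)2 and 5.24 ± 2.12 CPM in +/+. The class as a whole did not move 1 way: 4 log2 fold changes were positive and 5 negative, with a median of -0.03. Of 8 of the Sst class, 0 were called in edgeR (4 at an unadjusted p under 0.05), with a median of 0.37, and the 2 most abundant were the nitric oxide synthase Nos1 (log2 fold change 0.52, edgeR adjusted p 0.13) and the calcium-binding protein Calb1 (log2 fold change 0.02, edgeR adjusted p 0.93).

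Of 9 genes of the Vip class, 1 was called lower: Igfbp6, which encodes a binding protein of insulin-like growth factors, with a log2 fold change of -0.89 (edgeR adjusted p 0.018). It was at 6.72 ± 1.93 CPM in Ts65Dn;Df(17)2 (SD, n = 10) and 12.7 ± 5.94 CPM in +/+ (SD, n = 12). The Vip class was split, with 4 positive and 5 negative log2 fold changes and a median of -0.28. Of 10 neurogliaform genes, 1 rose and 2 fell. Ndnf, a secreted protein of layer 1 cells, was at 53.5 ± 13.2 CPM in Ts65Dn;Df(17)2 and 36.0 ± 10.1 CPM in +/+ (log2 fold change 0.57, edgeR adjusted p 0.040). Lamp5, a membrane protein that is also made by excitatory neurons, was at 56.6 ± 14.3 CPM in Ts65Dn;Df(17)2 and 98.9 ± 44.7 CPM in +/+ (log2 fold change -0.76, edgeR adjusted p 0.035). The transcription regulator Id2 had a log2 fold change of -0.36 (edgeR adjusted p 0.039). The list thus moved in both directions.

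Genes that act with the members were mostly not called. Among 12 tested receptors of the peptides, 0 passed in edgeR, and 5 had an unadjusted p under 0.05. The most abundant was the cholecystokinin receptor Cckbr, at 27.1 ± 5.89 CPM in Ts65Dn;Df(17)2 (SD, n = 10) and 42.3 ± 14.4 CPM in +/+ (SD, n = 12), with a log2 fold change of -0.63 (edgeR adjusted p 0.062). Of 3 reelin pathway genes 0 passed in edgeR (1 at an unadjusted p under 0.05), and the adaptor Dab1 had a log2 fold change of -0.01 (edgeR adjusted p 0.93). Of 10 genes of peptide processing and storage, 1 was called higher, the granin Scg2, with a log2 fold change of 0.46 (edgeR adjusted p 0.049). Most of that list went the other way, with 3 positive and 7 negative log2 fold changes and a median of -0.12. By unadjusted p under 0.05 in edgeR, 6 of the 10 passed.

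Of 15 markers of cortical excitatory neurons, 5 were called lower and 0 higher, against 2.22% and 1.75% of all tested genes, with a median log2 fold change of -0.50. They included Rorb (log2 fold change -0.55, edgeR adjusted p 0.012), Cux2 (log2 fold change -0.50, edgeR adjusted p 0.038) and Cux1 (log2 fold change -0.24, edgeR adjusted p 0.039). These 15 genes summed to 3089 to 4762 CPM in Ts65Dn;Df(17)2 and to 3015 to 5957 CPM in +/+. The part of this lower sum in the values of Vip, Cck and Pvalb was not tested. Of 12 glial and vessel markers and 4 hippocampal ones, 0 passed in edgeR, with 1 in each list at an unadjusted p under 0.05. Of 7 thalamic ones, 1 was called, the nuclear receptor Rora, at 146 ± 16.7 CPM in Ts65Dn;Df(17)2 and 189.9 ± 39.8 CPM in +/+ (SD, n = 10 and 12, edgeR adjusted p 0.037). In Dp(16)1/Df(16)8 against +/+, 0 of the 141 genes of these lists were called by edgeR, against 0.573% of all tested genes, and 30 had an unadjusted p under 0.05, against 12.8%. The medians there were 0.22 for the shared GABA genes, 0.28 for the caudal-eminence genes, 0.26 for the Sst class, 0.52 for the striatal markers and -0.32 for the excitatory markers. Those of the Pvalb and Vip classes were 0.01 and 0.20, that of the neurogliaform genes -0.05 and that of the medial-eminence genes -0.12.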

How the data were processed

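RNA of the cerebral cortex of 32 mice was measured by RNA-seq, with ribosomal RNA depleted before library preparation per the labels' protocols. Per the submitters' processing notes, the authors used STAR 2.7.9a, bcl2fastq 2.20 and featureCounts from the Subread 1.6.4 package. The strand setting of the counting is not given in the sources used here. The deposited values are raw counts per gene, as whole numbers with no normalization. The mouse annotation (GENCODE M21, GRCm38) was joined by identifier for 55141 of 55401 genes.

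Genes were kept by filterByExpr, which left 16042 genes with 99.75% of the counts. Libraries were scaled by TMM, and all 32 libraries entered 1 quasi-likelihood model of genotype and sex in edgeR 4.0.16 (R 4.3.3), with Benjamini-Hochberg adjustment over all tested genes and a threshold of 0.05. Log2 CPM used a prior count of 2. An SE is the log2 fold change divided by the square root of F, and 95% intervals rest on it. DESeq2 1.42.0 and limma 3.58.1 (voom) were alternatives, beside other scalings, filters and covariates and fits without each library. Animal numbers in the labels were split into 5 blocks where the gap to the next was over 20; the labels do not call them batches. The edgeR fit was tested on simulated data first. The slope on the striatal score came from the same model with the score as a further term, and pairs of members were compared by permutation.

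The members and gene lists were chosen with earlier results of these data known. All members are named, with 3 nearest genes each. From each list, up to 4 called genes with the smallest adjusted p against +/+ are named, or up to 2 of the highest level where none passed; 1 gene this rule picks is not reported here. Each library is 1 animal by its label, and precision is limited by the count behind a gene and by the number of animals.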

Additional observations from a re-analysis of the deposited data

Results flagged for a closer look

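In 20 sets of values (10 markers in each aneuploid genotype, 10 animals each), 2 values stood far from the others of their genotype, a distance that chance gives in about 1 of 20 sets. The +/+ animals, being more than 10, were not examined this way. Pvalb reached 28.43 CPM in Dp(16)1/Df(16)8 replicate 1, against 16.54 CPM in the next highest animal of that genotype. Reln was at 157.0 CPM in the same animal, against 245.9 CPM in the next lowest. Both values thus come from 1 library. Without it, the log2 fold change in Dp(16)1/Df(16)8 against +/+ was -0.66 for Pvalb (edgeR adjusted p 0.11), 0.19 for Reln (edgeR adjusted p 0.41) and 0.41 for Adarb2 (edgeR adjusted p 0.020). That fit called 1.38% of all tested genes in this comparison, against 0.573% with all libraries.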

How the results depend on the processing

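The number of members called in Ts65Dn;Df(17)2 against +/+ was 1, and it was 3 with DESeq2 (Adarb2, Pvalb and Cck), 0 with the striatal score as a term and 0 with the blocks of animal numbers as terms. Fits without each library in turn gave 1 to 4. Of all tested genes, 6.66% were called with DESeq2, 0.948% with the score, 0.536% with the block terms and 1.64% to 9.27% over the fits without a library. In Dp(16)1/Df(16)8 against +/+ it was 0, and 1 (Adarb2) with DESeq2 and with the block terms, with 0 to 1 over the fits without each library. There DESeq2 called 0.904% of all tested genes, the block terms 1.47% and the fits without a library 0.459% to 1.38%. The slope on the striatal score gave 5, with 3 to 6 over those fits. Among all tested genes the share called for a slope was 27.2%, and 23.6% to 27.6% over those fits. With the median in place of the mean over the striatal list, Adarb2 lost its slope call (edgeR adjusted p 0.061), where 26.5% of all tested genes were called. Ts65Dn;Df(17)2 against Dp(16)1/Df(16)8, males against females and the interaction stayed at 0 in every fit without a library that was run. The count of called pairs was 20, and 7 within the block with all genotypes, a setting chosen after seeing the data, in which fewer animals enter.

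Values that changed sign were all uncalled ones. In Ts65Dn;Df(17)2 against +/+, Npy was 0.12 with block terms, 0.081 within the block and 0.0051 without the animals numbered below 30000, and Htr3a was -0.026 within the block and -0.060 without those animals. In Dp(16)1/Df(16)8 against +/+, Vip was 0.0057 with the score, Npy -0.059 within the block, and Htr3a -0.0022 with block terms and -0.33 within the block. In Ts65Dn;Df(17)2 against Dp(16)1/Df(16)8, block terms gave 0.24 for Pvalb, 0.17 for Vip, 0.074 for Npy, -0.053 for Lhx6, -0.029 for Reln, 0.12 for Htr3a and 0.15 for Cck. Within the block the values were 0.32 for Pvalb, 0.55 for Vip, 0.14 for Npy, -0.18 for Lhx6, -0.072 for Adarb2, 0.30 for Htr3a and 0.44 for Cck. The score as a term gave 0.16 for Htr3a and 0.0094 for Cck, and leaving out the low-numbered animals gave 0.040 for Tac2. With the score taken out, r became -0.023 for Npy and Htr3a, 0.070 for Reln and Cck, and 0.0091 for Htr3a and Tac2. Over the fits without each library, Htr3a ran from -0.082 to 0.17 in Ts65Dn;Df(17)2 and from -0.044 to 0.18 in Dp(16)1/Df(16)8 against +/+, and from -0.14 to 0.089 between the aneuploid genotypes, where Tac2 ran from -0.14 to 0.065. In males against females, Htr3a ran from -0.039 to 0.14 and Sst from -0.035 to 0.0062. The slope of Npy ran from -0.035 to 0.0054 and that of Sst from -0.016 to 0.015. The cause of these changes was not tested.

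No paired analysis was possible because the labels give each animal a number of its own and no replicate numbers shared between genotypes. Depth limits Htr3a and Tac2 most.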
